A study of Sus scrofa with 8 samples.

Results

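The 10 genes described here are long pig genes that carried broad stretches of H3K27 acetylation in pgEpiSC: ADGRL2, TENM4, ROBO1, PTPRD, DLG2, GPM6A, TMEM132D, NKAIN2, ARL15 and CLYBL. The pig RefSeq table for Sscrofa11.1 holds 16298 named protein-coding genes on the placed chromosomes, and these are 10 of them. They were chosen by measured values, namely the greater kb of H3K27ac islands over the locus in pgEpiSC than in pEF, so that contrast is given as a description and no test of it is reported. All matched the table, and their windows were the gene with 10 kb on either side. The shortest was CLYBL at 260.5 kb and the longest PTPRD at 2181 kb, with a median of 780.5 kb against 25.6 kb over all genes.

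The study profiled H3K27ac by ChIP-seq in 2 pig cell types. pgEpiSC are pre-gastrulation epiblast stem cells, labelled as from the embryonic day 10 epiblast, with libraries numbered 1 and 4. pEF are pig embryonic fibroblasts, labelled as from day 30, with libraries numbered 1 and 2. Each of the 4 H3K27ac libraries had its own input, and none of the labels names a treatment or a modified allele. The labels do not say whether the libraries of a type share a line, an animal or a culture, so the spread between them may be technical. Errors are SD over n = 2 libraries per type.

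Acetylation of lysine 27 on histone H3 marks active promoters and enhancers, and at some loci it spreads over long stretches. Most of the 10 genes belong to families best known from neurons, where latrophilins, teneurins and receptor phosphatases hold synaptic membranes together and ROBO receptors steer axons. Such genes are often very long, most of their length being intron. ARL15 and CLYBL have roles outside the nervous system, in membrane traffic and in mitochondria.

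The deposited lists give islands, which are stretches where ChIP reads cluster, with ChIP and input reads in each. pgEpiSC had 64620 and 74208 islands over 408 and 414 Mb, against 62261 and 57790 islands over 273 and 275 Mb in pEF. ChIP reads inside islands numbered 29.7 and 38.2 M in pgEpiSC, against 42.4 and 46.4 M in pEF. Over all islands the ChIP reads were 1.88 and 1.73 times the scaled input in pgEpiSC, against 4.58 and 4.81 times in pEF. The pgEpiSC islands thus covered more of the genome at a lower enrichment, and the part this plays in the lengths below was not tested. In bulk ChIP-seq, fewer cells carrying the mark and less mark per cell cannot be told apart. Whether the lower enrichment is biological or technical was not tested. The 8 pgEpiSC markers, POU5F1 and SOX2 among them, were all longer in both pgEpiSC libraries than in either pEF library. Of the 8 pEF markers, 7 were longer in both pEF libraries, and THY1, singled out after its values were seen, overlapped between the types. Of 8 neural markers with a locus in the table, SOX1 and NEUROD1 had no island in any library. PAX6 and NES overlapped between the types. The other 4 were longer in pgEpiSC and 0 in pEF. The smallest of these differences was at SYP, with 9.36 and 7.96 kb in pgEpiSC against 7.36 and 7.36 kb in pEF. Over all genes 52.3% were longer in both pgEpiSC libraries, so the count of 4 is near the background share. The series as used here holds no RNA measurement, so whether any of the 10 genes is transcribed was not measured.

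Acetylated length is the kb of islands inside a window, and the covered share is that length as a percent of the window. A gene is said to have its libraries apart when both pgEpiSC libraries lie above both pEF libraries, or both below. By the choice of members all 10 were apart with pgEpiSC longer, which also held for 52.3% of all 16298 genes and for 61% of the 833 genes at least as long as CLYBL. Nothing is read from the count of 10. In a limma fit over all genes, with Benjamini-Hochberg adjustment and a threshold of 0.05, 31.9% were longer in pgEpiSC and 10.9% in pEF. The balance of these backgrounds turned with the processing. With islands of at least 2-fold over input alone, limma called 1152 genes longer in pgEpiSC and 2691 in pEF, and 3764 and 6653 had their libraries apart in these directions. With every library centred on its median gene, limma called 3583 and 3855, and 5582 and 7232 had their libraries apart. Across the members the median covered share was 39.9% and 40.6% in pgEpiSC, against 3.97% and 4.34% in pEF. Over the 833 long genes the medians were 13.3% and 13.3% in pgEpiSC, against 6.98% and 7.38% in pEF. Over all genes they were 21.8% and 23.0% in pgEpiSC, against 14.1% and 13.4% in pEF. The flanks make up much of the window of a short gene and little of that of a long one, so these shares are of windows with different make-up. The median of the members stood above both in pgEpiSC, by choice.

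**Figure D1:**
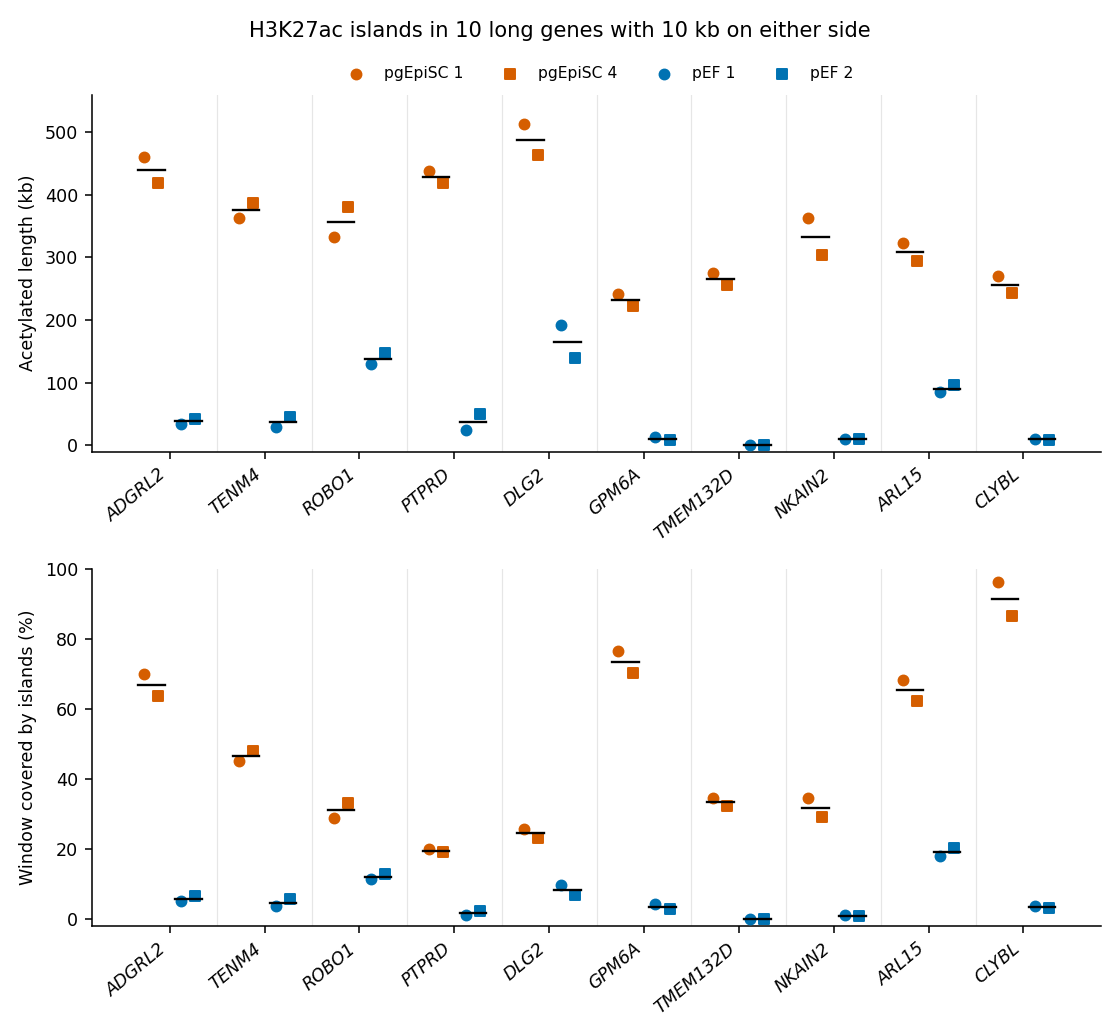
Acetylated length in kb and covered share in percent of the window (gene with 10 kb on either side) for the 10 genes, with 1 point per library, pgEpiSC left of pEF and black lines at the mean of a type. The pgEpiSC points lie between 222 and 513 kb and the pEF points between 0 and 192 kb; the shares are highest at CLYBL and lowest at PTPRD in pgEpiSC.

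ADGRL2 and TENM4 encode a receptor and a ligand of the same adhesion system. ADGRL2 is latrophilin 2, an adhesion G protein-coupled receptor, and lies on chromosome 6 at 131727082 to 132366106. Its acetylated length was 460.5 and 419 kb in pgEpiSC, against 34.5 and 42.5 kb in pEF, or 69.9% and 63.6% of the window against 5.24% and 6.45%. The libraries of a type lay close together and the types did not overlap. In pgEpiSC more than 50% of the bases were covered in 9 of 10 equal bins of the gene body. Bins are numbered 1 to 10 from the lower coordinate, since the table gives no strand. The longest ADGRL2 island spanned 62.0 kb at 3.53-fold over input in pgEpiSC 1 and 53.4 kb at 3.27-fold in pgEpiSC 4. The strongest pEF island of the gene lay inside it, at 8.63-fold in pEF 1 and 9.57-fold in pEF 2.

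TENM4 is a teneurin, a large transmembrane protein that binds latrophilins across the gap between cells, and lies on chromosome 9 at 13040615 to 13826957. Islands covered 364 and 387 kb in pgEpiSC, against 30 and 45.2 kb in pEF, or 45.1% and 48.0% of the window against 3.72% and 5.61%. The pEF libraries differed more from each other than the pgEpiSC libraries did in relative terms, and the types stayed apart. Bin 1 of TENM4 was covered over 87.0% ± 4.68 in pgEpiSC and 0.763% ± 0.360 in pEF. Bin 10 was near parity, at 29.8% ± 1.80 in pgEpiSC and 24.0% ± 3.42 in pEF. The strongest pEF 2 island of all 10 genes, 13.1-fold over input, lay in bin 10, where neither pgEpiSC library had an island over it.

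ROBO1 and PTPRD encode cell surface receptors of axon guidance and synapse formation. ROBO1, a receptor for SLIT ligands, lies on chromosome 13 at 175348223 to 176479482. It had 333 and 381 kb in pgEpiSC, against 130.3 and 147 kb in pEF, which is 28.9% and 33.1% of the window against 11.3% and 12.8%. This was the smallest relative difference among the 10, with a log2 ratio of 1.36 on kb plus 1. Both types concentrated on the same stretch of ROBO1: bins 7 and 8 were covered over 54.9% ± 6.44 and 64.0% ± 6.08 in pgEpiSC, and 38.9% ± 1.00 and 36.8% ± 1.98 in pEF.

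PTPRD is a receptor-type tyrosine phosphatase of the LAR family that binds SLITRK and IL1RAPL1 proteins at synapses, and lies on chromosome 1 at 211832409 to 214013013. Its length was 437 and 418 kb in pgEpiSC, against 24.4 and 50 kb in pEF. Because the gene is so long these lengths were 19.9% and 19% of the window, against 1.11% and 2.27%, the lowest pgEpiSC shares of the 10. PTPRD was acetylated in 1 block rather than along its length: bins 1 to 3 held 88.1% of its pgEpiSC length. Bin 2 was covered over 79.3% in pgEpiSC and bin 4 over 0.828%. The longest PTPRD islands measured 77.2 and 58.4 kb in pgEpiSC, at 3.38- and 3.42-fold.

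DLG2, also called PSD-93, is a scaffold that anchors receptors and channels under the synaptic membrane, and lies on chromosome 9 at 17575991 to 19547417. Islands covered 513 and 463 kb in pgEpiSC, the greatest lengths of the 10, against 192 and 139 kb in pEF. The shares were 25.8% and 23.3% in pgEpiSC, against 9.63% and 6.98% in pEF. As at PTPRD the pgEpiSC length sat toward the lower coordinate, with 68.3% of it in bins 1 to 3 and bin 1 covered over 80.2%. In 2 bins pEF was covered more than pgEpiSC. The 200 kb beyond the high flank, which hold TMEM126A, CREBZF, CCDC89 and SYTL2, were covered over 26.7% and 23.2% in pgEpiSC, against 68.7% and 77.6% in pEF. The DLG2 window also holds TMEM126B, the only other protein-coding gene found inside any of the 10 windows.

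GPM6A, TMEM132D and NKAIN2 encode smaller membrane proteins. GPM6A is a neuronal glycoprotein of the proteolipid family, on chromosome 15 at 38258496 to 38555129. It had 242.5 and 222 kb in pgEpiSC, against 13.2 and 8.60 kb in pEF, or 76.6% and 70.2% of the window against 4.17% and 2.72%. In each pgEpiSC library 9 of the 10 bins of GPM6A were covered over more than 50%, and 8 bins held no pEF island. The pEF stretches shared by both pEF libraries, 7 kb in length, lay wholly inside stretches shared by both pgEpiSC libraries.

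TMEM132D, a single-pass membrane protein studied mostly in brain, lies on chromosome 14 at 25144440 to 25919018. It had 275 and 256 kb in pgEpiSC, 34.6% and 32.2% of the window, and is listed with no island in either pEF library. No ratio is given against 0. Its bin 1 was covered over 77.5% in pgEpiSC, and its base-pair overlap between the pgEpiSC libraries was the smallest of the 10, with a Jaccard index (shared over combined length) of 0.50. Some TMEM132D islands held fewer ChIP reads than the scaled input, the lowest being 0.64-fold in pgEpiSC 1 and 0.39-fold in pgEpiSC 4.

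NKAIN2, which interacts with the beta subunit of the sodium and potassium pump, lies on chromosome 1 at 38014252 to 39040215. Islands covered 363 and 303 kb in pgEpiSC, against 11 and 9.60 kb in pEF, or 34.7% and 29.0% of the window against 1.05% and 0.92%. Coverage was highest in bins 5, 7 and 8, bin 8 reaching 59.5% in pgEpiSC. NKAIN2 and TMEM132D had the lowest reads over scaled input of the 10 in pgEpiSC.

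ARL15 and CLYBL are the members without a mainly neuronal role. ARL15 is a small GTPase of the ARF-like family, on chromosome 16 at 33122591 to 33575548. It had 323 and 295 kb in pgEpiSC, against 85.2 and 96.2 kb in pEF, or 68.2% and 62.4% of the window against 18.0% and 20.3%, the highest pEF shares of the 10. The types occupied different ends of the gene. Bin 4 was covered over 95.6% in pgEpiSC, while bin 9 was covered over 0% in both pgEpiSC libraries, against 74.3% and 69.0% in pEF. Of the ARL15 length shared by both pEF libraries, 30.5% lay in stretches shared by both pgEpiSC libraries. The 200 kb beyond the low flank, which hold NDUFS4, a subunit of respiratory complex I, were covered over 85.8% and 69.2% in pgEpiSC, against 7% and 12.9% in pEF.

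CLYBL, a mitochondrial lyase that clears a metabolite harmful to vitamin B12, lies on chromosome 11 at 68507828 to 68768322. Its window was covered nearly end to end in pgEpiSC, over 270.1 and 243 kb or 96.3% and 86.5%, against 10.6 and 8.60 kb or 3.78% and 3.07% in pEF. Among the 833 long genes its gain in covered share ranked first, while that of DLG2, the lowest of the 10, ranked 204. The longest island of the 10 genes, 121.4 kb at 3.22-fold, lay in CLYBL in pgEpiSC 1. The pgEpiSC libraries overlapped in CLYBL with a Jaccard index of 0.88, the highest of the 10. With nearly the whole window covered in both libraries, a high index follows largely from the coverage. The coverage did not stop at the gene. The 200 kb beyond its high flank, with ZIC5, ZIC2 and PCCA, were covered over 76.3% and 65.2% in pgEpiSC, against 5.30% and 13.3% in pEF. On the low side, with UBAC2 and TM9SF2, the shares were 46.5% and 47.1% in pgEpiSC, against 7.6% and 7.5% in pEF.

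**Figure D2:**
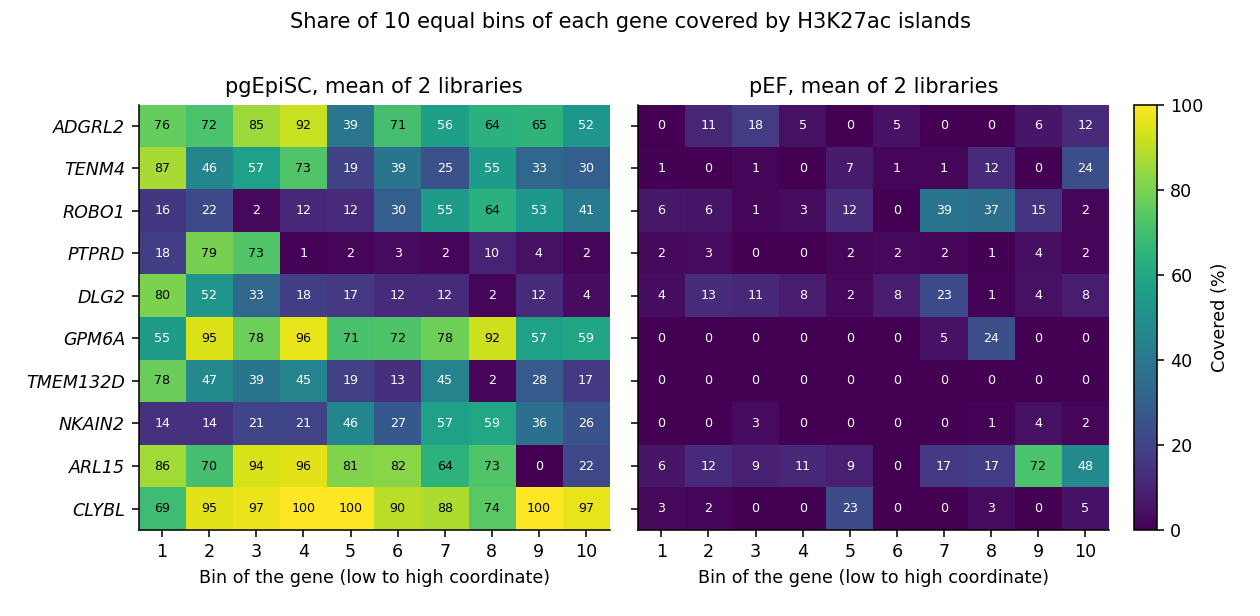
Percent of each of 10 equal bins of the gene body covered by islands, counted from the lower coordinate, for the 10 genes, with pgEpiSC left of pEF and the mean of 2 libraries per type. CLYBL and GPM6A are over 50% covered in all 10 bins in pgEpiSC, PTPRD and DLG2 toward the low end, and ARL15 has the only bin above 50% in pEF, where pgEpiSC has 0%.

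**Figure D3:**
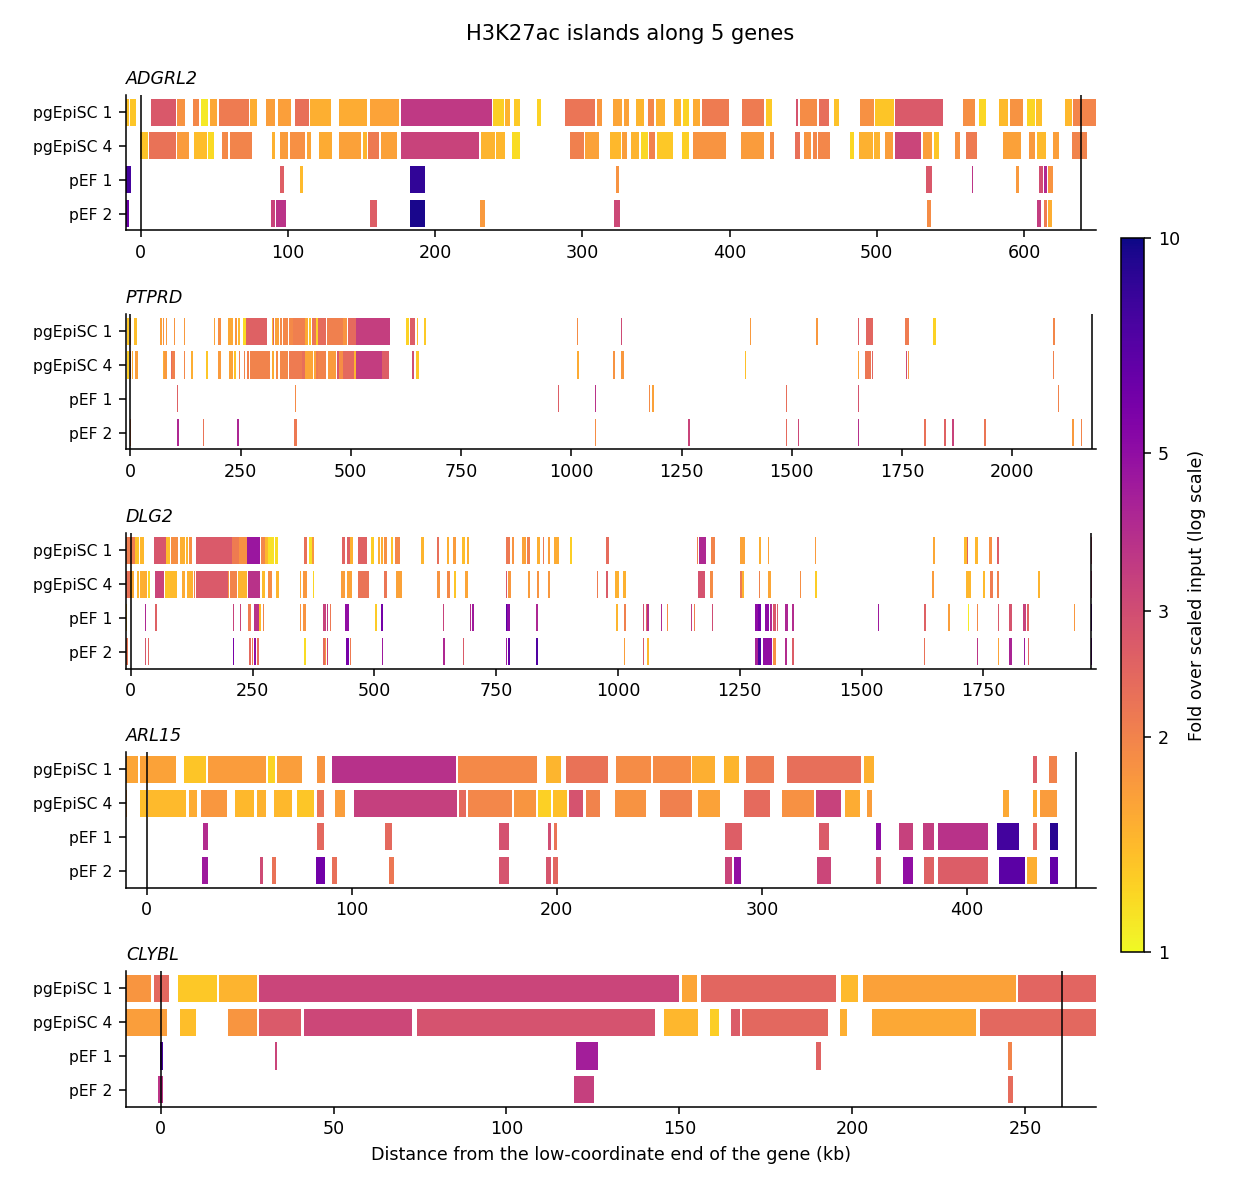
Islands along ADGRL2, PTPRD, DLG2, ARL15 and CLYBL in each of the 4 libraries, with pgEpiSC above pEF, the horizontal axis in kb from the lower end of the gene and black lines at the gene ends. Each bar is 1 island coloured by its fold over scaled input on a log scale, and the pgEpiSC rows show chains of islands where the pEF rows show fewer, shorter and often darker ones.

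Length and strength went opposite ways. Reads over scaled input is the ChIP reads of all islands in a window divided by their input reads scaled to library size. The median over the members was 2.17 and 2.03 in pgEpiSC, against 3.62 and 3.77 in pEF over the 9 members with pEF islands. Over all genes with islands the medians were 2.20 and 1.98 in pgEpiSC, against 5.97 and 5.57 in pEF. Over the 833 long genes they were 1.93 and 1.83 in pgEpiSC, against 4.28 and 4.22 in pEF. The lower pgEpiSC values are thus not particular to the members. At the 9 members with pEF islands both pgEpiSC libraries lay below both pEF libraries. The same held for 96.2% of the 13386 genes with an island in every library, so the count of 9 is near the background share. The difference was wide at ADGRL2, with 2.08 and 1.96 in pgEpiSC against 4.78 and 4.53 in pEF, and at TENM4, with 2.13 and 1.94 against 4.64 and 5.37. It was narrow at GPM6A, with 2.30 and 2.12 in pgEpiSC against 2.41 and 2.44 in pEF, and at PTPRD, with 2.25 and 2.17 against 2.37 and 2.67. NKAIN2 was weak in both types, at 1.76 and 1.85 in pgEpiSC against 1.92 and 2.14 in pEF. TMEM132D had 1.91 and 1.78 in pgEpiSC. CLYBL had the highest pgEpiSC values of the 10, 2.53 and 2.43, against 4.02 and 3.26 in pEF. At ROBO1 the values were 2.08 and 1.99 in pgEpiSC against 3.62 and 4.26 in pEF. DLG2 had 2.21 and 2.08 in pgEpiSC against 3.47 and 3.89 in pEF, and ARL15 had 2.22 and 2.09 against 4.02 and 3.77.

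Islands of the members in pgEpiSC were many, long and weak. The 10 windows held 381 and 437 islands in pgEpiSC, against 146 and 140 in pEF. Of these, 29.1% and 26.5% were at least 2-fold over scaled input in pgEpiSC, against 80.1% and 82.9% in pEF, near the shares among all islands of the same libraries, which were 37.1% and 27.8% in pgEpiSC and 84.7% and 85.6% in pEF. The median member had 59.1% and 52.4% of its length in islands of at least 10 kb in pgEpiSC, against 5.21% and 0% in pEF. Pooled over all islands of the genome, rather than as a median over genes, the shares were 36.4% and 31.5% in pgEpiSC, against 30% and 31.5% in pEF. The genes were chosen for greater island length in pgEpiSC than in pEF, so nothing is read from this contrast. Input reads per kb of member island were 35.7 and 37.1 in pgEpiSC, against 37.7 and 35.0 in pEF. NKAIN2 stood apart from this pooled value, with 35.1 and 35.4 in pgEpiSC, against 69 and 64.1 in its few pEF islands.

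The lengths depended on how strong an island had to be. With islands of at least 2-fold enrichment alone, ROBO1 had 157 and 141 kb in pgEpiSC, against 120.4 and 125 kb in pEF, a log2 ratio of 0.28 in place of 1.36. ARL15 then had 138 and 111 kb in pgEpiSC, against 85.2 and 91.4 kb in pEF. DLG2 then had 252 and 192 kb in pgEpiSC, against 162 and 119.6 kb in pEF. At the other end PTPRD had 269 and 249 kb in pgEpiSC, against 14.6 and 41.0 kb in pEF, and CLYBL had 188 and 173 kb against 9.40 and 8.60 kb. The pgEpiSC libraries stayed above the pEF libraries at all 10 genes, and the median pgEpiSC share was 15%, against 40.2% with all islands.

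A measure that joins length and strength is the excess, the ChIP reads above scaled input in the window per M ChIP reads in all islands. PTPRD had 619 and 533 in pgEpiSC, against 22.4 and 54.9 in pEF. DLG2 had 704 and 575 in pgEpiSC, against 315 and 257 in pEF. CLYBL had 537 and 458 in pgEpiSC, against 21.6 and 12.3 in pEF. The smallest difference was at ROBO1, with 394 and 413 in pgEpiSC against 230.0 and 314 in pEF. All 10 members had higher excess in both pgEpiSC libraries than in either pEF library, as did 25% of all genes, and nothing is read from this count because the excess rests on the same islands as the rule.

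**Figure D4:**
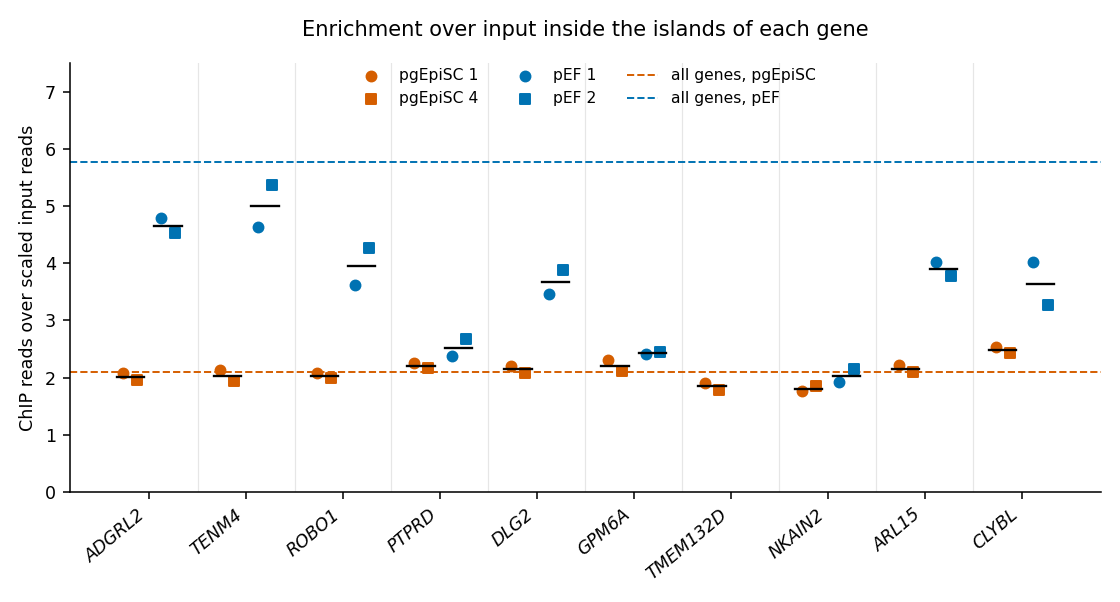
ChIP reads over scaled input reads inside the islands of each of the 10 genes, with 1 point per library, pgEpiSC left of pEF, short black lines at the mean of a type and dashed lines at the mean over libraries of the all-gene median. pgEpiSC points lie between 1.76 and 2.53, below the pEF points of the same gene, and TMEM132D has no pEF point because it had no pEF island.

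Nearly all of the acetylated length lay in the gene interior, which also fills nearly all of the window. This does not say how even the coverage was along the gene. The 3 fullest bins held between 33.0% of the pgEpiSC gene-body length at CLYBL and 88.1% at PTPRD. The gene body more than 2 kb from its ends held a median of 96.6% and 97.4% of the acetylated length in pgEpiSC, against 98.9% and 98.0% in pEF, and it makes up a median of 97.0% of the windows. Of the 20 ends, islands touched the 2 kb on either side of 14 and 15 in pgEpiSC, against 2 and 3 in pEF. A like share over all gene ends is not given here, so nothing is read from these counts. The 7 genes ADGRL2, TENM4, ROBO1, GPM6A, TMEM132D, NKAIN2 and ARL15 had an end island in both pgEpiSC libraries and in neither pEF library, which held for 7.31% of all genes. PTPRD had an end island in pEF 2, CLYBL in both pEF libraries at its low end, and DLG2 in all 4 libraries at its high end. The DLG2 high end was 2.99- and 3.45-fold over input in pgEpiSC, against 6.70- and 5.71-fold in pEF. TMEM126B begins within 2 kb of that end, so the island cannot be given to DLG2 alone. End islands are part of the measured length and so are not independent of how the genes were chosen, and starts could not be told from ends.

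In pgEpiSC the gene body was covered more than the sequence beside it at most members, and in pEF it was not. High body coverage in pgEpiSC and low body coverage in pEF were favoured by the choice of genes. The neighbouring sequence was not chosen, so the comparison is a description in both types. The median gene body was covered over 40% and 40.5% in pgEpiSC, against 3.94% and 4.37% in pEF. The 200 kb beyond the 10 kb flank on each side were covered over a median of 14.7% and 14% in pgEpiSC, against 5.91% and 8.77% in pEF. In both pgEpiSC libraries the body exceeded both outer stretches at 8 members, the exceptions being DLG2 and ARL15, and at 33.4% of all genes, from which nothing is read. In pEF 1 and pEF 2 the body exceeded both outer stretches at 2 and 1 members. An all-gene share is not given for pEF, so nothing is read from these counts either. For GPM6A the contrast was sharp, with 78.8% and 72% in the body and an average of 8.92% and 7.70% in the outer stretches in pgEpiSC.

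Islands called in both libraries of a type were compared between the types. Stretches called in both pgEpiSC libraries made up 2744 kb of the 10 windows and stretches called in both pEF libraries 378.8 kb. The 170.0 kb common to all 4 libraries were 6.20% of the pgEpiSC stretches and 44.9% of the pEF stretches, against 25.5% and 35.3% genome-wide. The share of the pgEpiSC stretches is limited by the short pEF length for which the genes were chosen. The pEF share inside likewise rises with the high pgEpiSC coverage of the chosen genes. Nothing is read from either share beside its genome-wide value. At GPM6A and CLYBL all of the pEF stretches lay inside pgEpiSC stretches. They measured 7 kb at each gene, in windows mostly covered in pgEpiSC. The pEF share inside was 76.4% at ADGRL2, 60.7% at ROBO1 and 45.5% at TENM4. It was lower at ARL15 with 30.5%, DLG2 with 30.1%, PTPRD with 25.8% and NKAIN2 with 21.2%, and TMEM132D had no pEF stretch. The Jaccard index over the members was 0.65 between the pgEpiSC libraries and 0.54 between the pEF libraries, against 0.56 and 0.63 genome-wide. The index rises with coverage, and the genes were chosen by coverage. The member and genome-wide values are thus not read as replicate agreement.

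**Figure D5:**
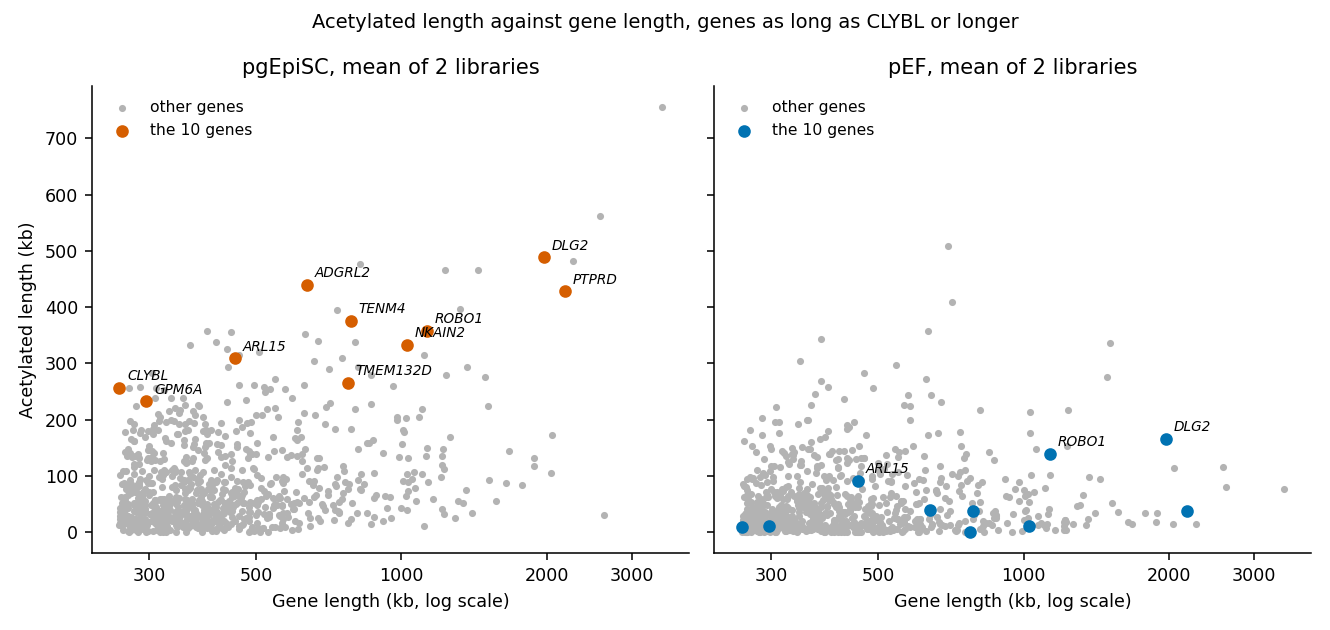
Mean acetylated length (vertical axis, kb) against gene length (horizontal axis, kb, log scale) in pgEpiSC on the left and pEF on the right, with 1 point per gene for the 833 genes at least as long as CLYBL and the 10 genes in colour. In pgEpiSC the 10 genes lie between 232 kb at GPM6A and 488 kb at DLG2, among other long genes of which some lie higher at a like gene length, and in pEF they lie between 0 kb at TMEM132D and 165 kb at DLG2.

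The 10 genes are not the whole upper end of the ranking. By gain in kb their ranks among all genes ran between 4 for ADGRL2 and 36 for ARL15, and 26 genes ranked above ARL15 were not chosen. The non-members with the greatest gains were TENM2, RBFOX1, TENM3, NAV2 and FHIT. TENM2, another teneurin, ranked first with 816 and 695 kb in pgEpiSC, against 68.0 and 84.6 kb in pEF. RBFOX1, a neuronal splicing factor, had 511 and 451 kb in pgEpiSC, against 12.2 and 18.2 kb in pEF. These were 22.3% and 19.7% of its window against 0.53% and 0.79%, at 2.10 and 1.82 times scaled input against 3.69 and 3.33. Just around the last member, AFF3 gained 220.0 kb, ARL15 itself 218 kb, and DENND1A and C8H4orf22 213.9 kb each.

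Among the relatives of the members the direction was uneven. In the latrophilin, teneurin and FLRT list 8 of 9 non-members were longer in both pgEpiSC libraries, and TENM1, on the X chromosome, was longer in pEF. In the ROBO, SLIT and SRGAP list of 9, 4 were longer in pgEpiSC and 2 in pEF. ROBO2 had 139.6 and 149.6 kb in pgEpiSC, against 8.80 and 20.2 kb in pEF, or 8.24% and 8.83% of its window against 0.52% and 1.19%. SRGAP1, a GTPase activator downstream of ROBO, had 34.8 and 33.4 kb in pgEpiSC, against 105 and 131 kb in pEF. These were 10.7% and 10.3% of its window against 32.3% and 40.5%. The list of receptor phosphatases and their partners split into 5 longer in pgEpiSC, PTPRF and LRFN5 leading, and 4 longer in pEF, NTRK3 and IL1RAP leading, of 13. Of 16 DLG scaffolds and partners, 11 were longer in pgEpiSC, DLGAP1 and GRIN2B leading. CASK, on the X chromosome, and LIN7C were longer in pEF. The shares for all genes were 52.3% longer in pgEpiSC and 21.9% longer in pEF, and no list was tested against them. Their balance turned with 2-fold islands and with centring.

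In the smaller families, 3 of the 4 other TMEM132 genes were longer in pgEpiSC, TMEM132C and TMEM132B leading, and 0 in pEF. Of 9 NKAIN and pump subunit genes 7 were longer in pgEpiSC, led by NKAIN3 and NKAIN1. GPM6B, the nearest relative of GPM6A, was longer in pEF. It lies on the X chromosome, and its covered share was low, at 3.69% and 5.66% in pgEpiSC against 6.81% and 10.5% in pEF. Its reads over scaled input differed between libraries of a type, at 2.77 and 1.94 in pgEpiSC and 7.72 and 5.49 in pEF. At TENM1, also on X, they were 3.54 and 1.94 in pgEpiSC and 6.51 and 3.39 in pEF. At CASK they were 3.97 and 2.13, and 6.61 and 4.04. The cause was not tested, and it limits what these X-linked genes show. Of 15 other ARL genes 10 were longer in pgEpiSC and 3 in pEF. Of 5 other genes of B12 metabolism 3 were longer in pgEpiSC, MMAB and MTR leading, and MMADHC was longer in pEF.

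A further list held 39 other long genes, many known from neurons or fragile sites. Of these, 31 were longer in both pgEpiSC libraries and 6 in both pEF libraries. Their median gain was 91.0 kb, and kb grows with gene length. Their median covered share was 7.90% and 10.1% in pgEpiSC, against 2.42% and 2.08% in pEF. Of the 833 long genes 61% and 23.2% were apart in these directions, with a median gain of 22.3 kb. The median shares of the 833 were 13.3% and 13.3% in pgEpiSC, against 6.98% and 7.38% in pEF. The list was not tested against the 833 long genes. The 6 listed genes longer in pEF included PDE4D, a cyclic AMP phosphodiesterase, with 253 and 194 kb in pgEpiSC against 323 and 349 kb in pEF. These were 16.6% and 12.7% of its window against 21.1% and 22.8%. DMD, the dystrophin gene on the X chromosome, had 31.4 and 30 kb in pgEpiSC, against 74.6 and 85.2 kb in pEF. These were 1.19% and 1.14% of its window against 2.82% and 3.22%.

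The genes most like the members were sought among the 833 long genes by the Euclidean distance between their covered shares in the 4 libraries and the members' medians. The nearest non-member was BBX, a gene for an HMG-box protein, with 40.6% and 38.6% in pgEpiSC, against 3.72% and 4.24% in pEF (distance 2.13 percentage points). C8H4orf22 followed at 4.44, then the DNA repair gene MGMT at 6.27, the adhesion gene SDK1 at 6.33 and TIAM1, an activator of RAC, at 6.43.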

How the data were processed

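The H3K27ac data came as 4 lists of islands, 1 per H3K27ac library, and the 4 inputs enter through the input reads in those lists. Per the submitters' processing notes the tools included SICER 1.1, BWA 0.7.15 and SAMtools 0.1.19. The deposited columns have no header and match a SICER summary. The deposited count columns hold whole ChIP and input reads per island. The p and FDR against input stand in the deposited p-value columns, and the deposited fold column divides ChIP reads by scaled input, a ratio. Islands lie on a 200 bp grid and were not filtered on FDR by the authors. Whole-library depth is not given in the sources used here, nor are the mapping filters.

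The build is not named in the files. Gene ends of the RefSeq Sscrofa11.1 table were in islands at a higher rate than positions shifted by 20 kb on 19 of 19 chromosomes, and the coordinates printed are those of that table and of the files. It gives no strand. Where 17 symbols had several rows the longest was kept. No genome sequence was used here, so no sequences are shown.

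The members and the lists were chosen with earlier results of these data known. Acetylated length was the kb of islands in a gene with 10 kb on either side. Edge islands entered reads over scaled input by the share of their length inside. Limma 3.58.1 (R 4.3.3, trend, log2(kb + 1), pgEpiSC against pEF, all 16298 genes, 2 libraries per type) gave the all-gene background alone. It and the overlap code were tested on simulated data. Members got counts, medians and SD, with no test.

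Named genes were the 10 members, up to 2 non-members per list and direction with the largest difference among those apart, the 5 non-members with the largest gain, and the 5 long non-members nearest the members' median shares. A gene this rule names is not reported here. The genes around the last member and the neighbours were added after their values were seen. Python 3.11.15, numpy 2.4.6, pandas 2.3.3 and matplotlib 3.10.9 were used. Alternatives were limits on fold, FDR and island length, equal island numbers, no flank, other pseudocounts, a minimum of 1 kb, centring on the median gene and leaving out each library.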

Additional observations from a re-analysis of the deposited data

How the results depend on the processing

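All 10 members kept both pgEpiSC libraries above both pEF libraries, and a positive log2 ratio, under every alternative run. Their median log2 ratio of 3.48 was 2.81 with islands of at least 2-fold enrichment, 4.64 with islands of at least 5 kb, 2.90 after centring every library on its median gene, and 3.21 to 3.84 with 1 library left out. The median pgEpiSC share of 40.2% was 31.7% and 15% with islands of at least 1.5- and 2-fold, 32.6% with FDR under 1e-10, 32.5% with islands of at least 5 kb and 37.8% with equal island numbers. The pEF share of 4.15% was 3.87% with 2-fold and 2.09% with 5 kb islands. Median reads over scaled input of 2.10 in pgEpiSC was 2.25 and 2.70 with 1.5- and 2-fold islands, 2.23 with FDR under 1e-10 and 1.73 as the median island fold; that of 3.69 in pEF was 3.87, 3.83 with the FDR limit, 4.13 with 5 kb islands and 2.93 as the median island fold. The percent of acetylated length in the gene body over 2 kb from its ends, 97.0, was 99.1 with 2-fold islands and 99.4 for the gene body alone. Over all genes, limma called 5200 longer in pgEpiSC; this was 3220 with 1.5-fold, 1152 with 2-fold islands, 3583 centred and 1684 to 2188 without any 1 of the 4 libraries. It called 1773 longer in pEF; this was 2691 with 2-fold islands, 1094 with 5 kb islands, 3855 centred and 549 to 827 without 1 library, where the lone library of a type is assumed to vary like the other type. Genes with libraries apart and pgEpiSC longer numbered 3764 with 2-fold islands and 5582 centred, against 8528; with pEF longer 6653, 7232 and, with 5 kb islands, 2206, against 3566. The cause of these shifts was not tested. The median gene was longer in pgEpiSC by 0.46 on the log2 scale in the limma fit. No paired analysis was possible because the groups share only replicate number 1. With 2 libraries per type, weak enrichment in pgEpiSC and no strand or RNA, the lengths describe these 4 libraries.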

Other observations

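NAV2, a microtubule regulator of neurite growth, had 486 and 466 kb in pgEpiSC, against 72.2 and 104.6 kb in pEF. These were 57.8% and 55.5% of its window against 8.60% and 12.5%, at 2.12 and 1.95 times scaled input against 3.20 and 3.19. The fragile-site gene FHIT had 540.2 and 393 kb in pgEpiSC, against 95.0 and 92.0 kb in pEF. TENM3 had 567 and 558 kb in pgEpiSC, against 95.2 and 137 kb in pEF. These were 21.8% and 21.4% of its window against 3.66% and 5.27%, at 1.95 and 1.87 times scaled input against 3.74 and 3.90. Thus 3 of the 4 teneurin genes rank among the 10 greatest gains in kb, TENM4 being eighth, in a ranking that favours long genes. The fourth, TENM1 on the X chromosome, had 24.2 and 22.4 kb in pgEpiSC, against 32.4 and 27.2 kb in pEF. RERE, a transcriptional corepressor just outside the rank of ARL15, was covered over 89.9% and 85.0% of its window in pgEpiSC, against 16.5% and 27.3% in pEF, a share in pgEpiSC above that of 9 of the 10 members.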
